A study of Caenorhabditis elegans with 2 samples.

Results

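The 5 genes described here, png-1, mac-1, Y65B4A.2, josd-1 and plx-1, carried very strong intragenic binding peaks of the zinc finger protein T22C8.4 in embryos of the nematode Caenorhabditis elegans. They were named in advance from the signal of their leading peaks, so their signal is given as a description and no test is made on it. Of 19973 nuclear protein-coding genes, these 5 held 27 of the 2415 peak summits in the list that the authors called from both replicates together, termed the pooled list. They are not the 5 strongest hosts in strict order. Peaks in dys-1 (1113), frm-7 (852) and ceh-38 (713) had higher signal values than the leading peak of plx-1 (619), and those of cutl-18 (614) and Y48C3A.18 (581) fell just under it.

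An anti-GFP antibody was used to recover bound chromatin from 2 biological replicates of whole mid-stage embryos, given an age of 2 hours and obtained by bleaching eggs. All came from strain OP785, whose transgene wgIs785 carries T22C8.4 with TY1, EGFP and 3xFLAG tags and an unc-119(+) rescue gene in an unc-119 (tm4063) background. The replicates form 1 group, and no untagged strain, other stage or other factor was analysed here, so all peaks are those of the tagged transgene product in whole embryos of mixed cell types. Called alone, replicate 1 gave 1629 peaks and replicate 2 gave 1319. No reads are counted in these lists, and the depth of each library is unknown. The signal value is the peak caller's own, has no unit and is not on a common scale between lists, so replicate values are set side by side without an SD.

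C2H2 zinc finger proteins bind DNA through small zinc-stabilised folds, each of which touches a few bases, and many act as transcription regulators. Chromatin immunoprecipitation recovers the DNA near such a protein, and the summit of a peak is the position of its highest signal. Introns of C. elegans often hold tandem repeats, in which a short unit is copied head to tail, and genome files mark repeated sequence in lower case, called soft-masking. The 5 genes have products of different kinds. PNG-1 is a peptide N-glycanase, which removes N-linked sugars from glycoproteins on their way to degradation. JOSD-1 is annotated as a ubiquitinyl hydrolase, an enzyme class that removes ubiquitin. MAC-1 is an AAA-family ATPase that binds the cell death regulator CED-4. Y65B4A.2 is annotated with the papain-type domain of cysteine peptidases, and PLX-1 is a plexin, a cell-surface receptor for semaphorins.

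The sequences under the leading summits of mac-1, josd-1 and plx-1 show a 6-base word repeated at close to regular steps. No window is shown for the other genes. Not every weaker summit shown shares this feature. The steps were uneven at the weaker mac-1 summit, and the plx-1 coding exon window held no match. Each sequence shown is the summit base with 50 bases on either side, read on the plus strand of the RefSeq ce11 genome (WBcel235). Capitals mark every ATCGAT or ATTGAT on either strand, and other bases are in lower case whether soft-masked or not. ATCGAT reads the same on both strands, ATTGAT reads ATCAAT on the opposite strand, and overlapping matches were counted separately. The first pair is from intron 3 of mac-1, at chrII:13315825-13315925 and chrII:13316318-13316418 (signal values 776 and 240).
mac-1 stronger summit: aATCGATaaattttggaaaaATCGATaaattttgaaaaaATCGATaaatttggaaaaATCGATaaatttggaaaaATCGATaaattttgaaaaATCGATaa
mac-1 weaker summit: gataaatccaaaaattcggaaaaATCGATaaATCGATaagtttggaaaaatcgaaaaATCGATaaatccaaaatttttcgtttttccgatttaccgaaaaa

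The next pair is from intron 1 of josd-1, at chrIII:2836916-2837016 and chrIII:2837330-2837430. It is shown because the windows look alike and hold 5 matches each, yet their signal values were 784 and 50. The place of the last summit is uncertain, since the nearest summits of replicates 1 and 2 lay 86 and 109 bp from it. The windows also differ in repetition. Of the 52 stretches of 50 bases in each, 33 at the first summit and 21 at the last occur once in the genome.
josd-1 first summit: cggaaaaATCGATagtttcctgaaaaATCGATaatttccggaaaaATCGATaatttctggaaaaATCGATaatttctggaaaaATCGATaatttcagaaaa
josd-1 last summit: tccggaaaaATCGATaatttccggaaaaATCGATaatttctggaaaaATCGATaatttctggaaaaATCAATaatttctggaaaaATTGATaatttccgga

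The plx-1 set holds a summit in intron 19 at chrIV:977908-978008 (619), where the matches are of the ATCAAT kind, one in intron 13 at chrIV:972945-973045 (139) and one in a coding exon at chrIV:972367-972467 (88.6), which holds no match.
plx-1 intron 19: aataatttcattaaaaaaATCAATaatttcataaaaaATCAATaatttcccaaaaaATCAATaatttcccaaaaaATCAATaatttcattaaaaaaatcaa
plx-1 intron 13: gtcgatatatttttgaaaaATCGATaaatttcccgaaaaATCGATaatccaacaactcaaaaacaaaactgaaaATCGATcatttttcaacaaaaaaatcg
plx-1 coding exon: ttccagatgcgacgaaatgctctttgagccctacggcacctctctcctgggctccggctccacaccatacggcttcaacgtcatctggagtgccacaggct

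The summits lay mostly in introns, from 327 bp into the gene at the leading josd-1 summit to 18437 bp at that of plx-1. Of the 27 summits, 24 lay in introns, 2 in coding exons and 1 in a 3′ UTR. Over the whole list of 2415 summits, 1360 lay in a protein-coding gene body and 954 (39.5% of the list) were intronic. Only summits inside the gene bodies were taken for the 5 genes, so part of the difference from 39.5% follows from the choice. All 5 genes had a summit among the 20 strongest of the list, with 7 summits there and 10 among the strongest 100. Signal values within the 5 genes ran from 1295 down to 21.8, around a median of 105 over the whole list, and png-1, josd-1 and plx-1 held summits under that median beside their strong ones, whereas every summit of mac-1 and Y65B4A.2 was above it. A plot of the summits along each gene shows most of them standing over clusters of the word.

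**Figure D1:**
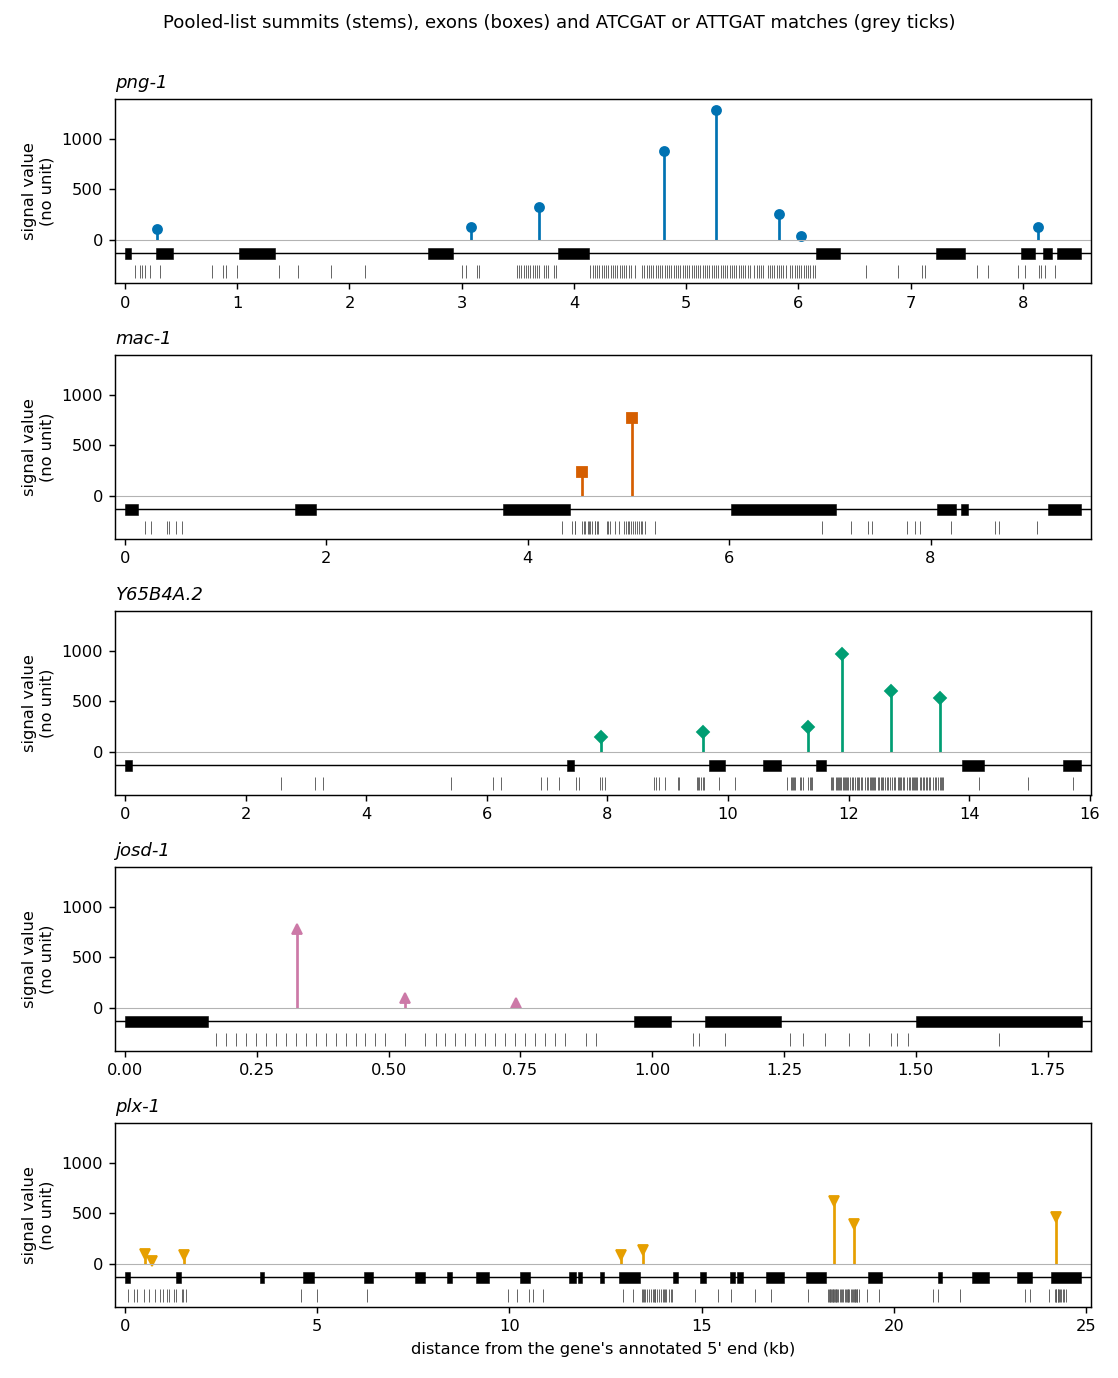
Signal value (no unit) of each pooled-list summit against distance from the annotated 5′ end of its gene in kb. Boxes are exons and grey ticks are ATCGAT or ATTGAT matches on either strand; the tallest stems, 1295 in png-1 and 973 in Y65B4A.2, stand over the longest runs of ticks.

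png-1 (WBGene00010160, chromosome I, 11380231 to 11388751, plus strand, 8521 bp) held 8 summits in 5 separate regions. Its intron 5, of 2025 bp, was covered almost end to end by a single peak of 1841 bp (11384558 to 11386398) with 4 summits. The strongest, 5264 bp into the gene, had a pooled signal value of 1295, rank 1 of the list (replicate 1, 604; replicate 2, 628). The summit 4803 bp into the gene reached 885, from 512 and 391. These led the gene in both replicates, and the order of the pair was the same in each list. Further along the same intron the summit at 5824 bp had 251 (116 and 151), and the last, at 6024 bp, had 39.6 and no summit within 100 bp in either replicate's thresholded list. All 4 had 5 matches within 50 bp, so the fall across the intron took place over the same number of matches.

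Elsewhere in png-1, intron 4 (935 bp) held a summit of 323 (159 and 158) over 4 matches, and a summit of 125 (70.2 and 62.0) over none. A weak summit of 105 (59.2 and 48.9) lay in the second exon, 287 bp from the 5′ end and within 500 bp of wbp-4. In replicate 2 its summit fell 88 bp away, in intron 1. The last, in the 75 bp intron 8, had 123 (59.1 and 59.0) and lay within 500 bp of aat-9, which is on the opposite strand. Intron 4 thus held a summit over its array of matches and a weaker one away from it.

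josd-1 (WBGene00022190, chromosome III, 2836639 to 2838453, plus strand) is the shortest of the 5 genes at 1815 bp, and its 3 summits lay in 1 peak of 849 bp that spanned intron 1 (807 bp). The first summit, 327 bp into the gene, reached 784 in the pooled list, 395 in replicate 1 and 364 in replicate 2. The second had 97.7 (32.5 and 28.4), and the last had 50, with 17.7 in replicate 1 and no replicate 2 summit within 100 bp. The first summit was therefore about as strong as the leading peak of mac-1, while its neighbours in the same intron fell under the list median. Replicate 2 placed its own last summit 109 bp from the pooled one (47.4) and called a further one in intron 3 (45.2). The pooled call nearest to that intron 3 summit had a signal value of 58.4 and a −log10 IDR of 1.76, under the 2 that listed peaks reached, where IDR is the irreproducible discovery rate, a measure of how well a peak repeats between replicates.

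mac-1 (WBGene00003119, chromosome II, 13311413 to 13320911, minus strand, 9499 bp) held only 2 summits, both in intron 3 (1599 bp). The stronger reached 776 in the pooled list, 415 in replicate 1 and 337 in replicate 2. The weaker, 13316368, had 240, from 139 and 113. Of the 7 other candidate calls within mac-1 that were not listed, the strongest had a signal value of 38.8 and a −log10 IDR of 0.290, under the 2 of listed peaks. The other 5 introns of mac-1 held 0 to 6 matches each, against 32 in intron 3.

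Y65B4A.2 (WBGene00022026, chromosome I, 638129 to 653988, plus strand, 15860 bp) held 6 summits in 6 regions, all in introns and all found in both replicates within 20 bp. Intron 5 (2259 bp) carried the 3 strongest. They had pooled signal values of 973 (497 in replicate 1, 478 in replicate 2), 607 (330 and 280) and 533 (266 and 271), in order along the gene. Intron 4 held a summit of 250 (110 and 128), and intron 2 held summits of 192 (120 and 67.6) and 145 (69.5 and 75.4). Signal was thus highest in intron 5 in each list and lower in introns 4 and 2. The summit of 145 also lay inside Y65B4A.7, a gene nested on the opposite strand, near the 5′ end of its shorter transcript.

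plx-1 (WBGene00004047, chromosome IV, 959521 to 984395, plus strand) is the longest of the genes at 24875 bp, with 8 summits in 7 regions spread over most of its length. Intron 19 (1106 bp) held its strongest summit, with a pooled signal value of 619 (302 in replicate 1, 328 in replicate 2), and another of 398 (185 and 235). A summit of 460 (261 and 170) lay in the 3′ UTR, the only strong summit of the 5 genes in an exon. The summit in intron 13 had 139 (69.2 and 70.3). These 4 were present in both replicates.

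The other 4 summits of plx-1 were weak and were not in the thresholded list of replicate 2. Its ranked list of candidates did hold entries within 31 bp of each, with signal values of 16.5 to 44.4 and a −log10 IDR of at most 1.25. Intron 1 held summits of 99.5 (51.5 in replicate 1) and 21.8 (in neither replicate's own list), and intron 2 held one of 87.3 (52.1). A coding-exon summit of 88.6 (58.6) lay 34 bp downstream of the 5′ end of a shorter plx-1 transcript. Each of these windows held 0 to 2 matches. In intron 13 the replicates' own lists added summits absent from the pooled list, of 25.3 and 13.7 in replicate 1 and 60.4 in replicate 2.

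Between replicates the 5 genes were matched more often than peaks of the whole list. Of the 27 summits, 21 had a summit within 100 bp in both replicate lists, against 40.6% of all pooled-list summits, which are mostly weaker, and only 2 had one in neither. Because the genes were chosen for strong peaks, this share follows the choice and is given as a description. Matched summits lay a median of 10 bp apart over 46 distances, and at most 88 bp. Over the 21 summits the signal values of the replicates ranked alike (Spearman rho 0.968, across summits that share genes and libraries).

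**Figure D2:**
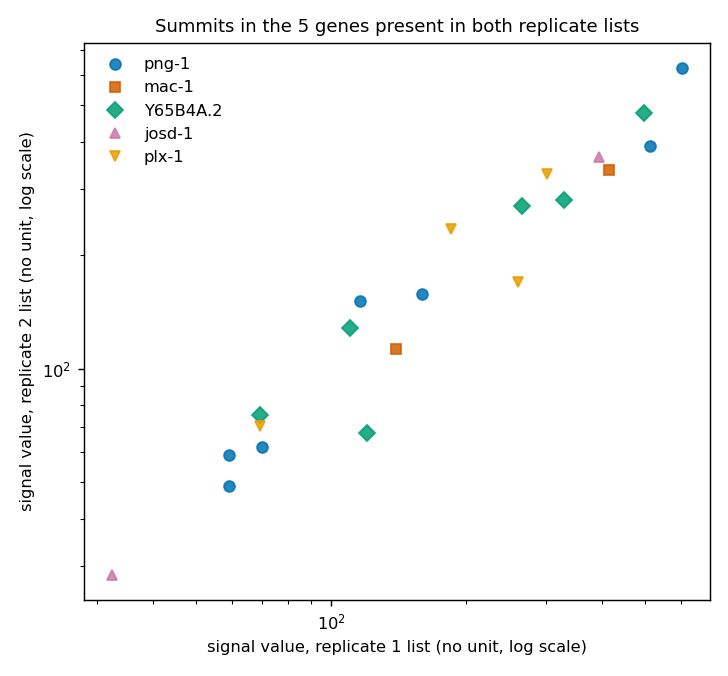
Signal value in the replicate 2 list against that in the replicate 1 list (no unit, log axes) for the 21 summits present in both. Values of separate lists cannot be compared in size, and only the order along each axis is read, from the josd-1 summit of 32.5 and 28.4 to the png-1 summit of 604 and 628.

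Repeated sequence lay under most of the summits. The summit base was soft-masked at 23 of 27 summits, against 42.6% over the list, and the whole window of 50 bp either side was masked at 17, against 12.9%. Masked sequence did not by itself set the strong summits apart, since the weak josd-1 summits and the weakest summit of png-1 were also fully masked. At the plx-1 coding exon, in contrast, no base of the window was masked, and at the plx-1 3′ UTR 75.2% were.

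A word of 50 bases at a summit was nonetheless seldom found anywhere but in its own gene. At 17 of the 27 summits every 50-base word of the window was unique in the genome, against 85.2% of all pooled-list summits. The other 10 had words that recurred up to 10 times, and in 0 of the 27 windows did any word also occur outside the gene. The recurrence therefore came from copies within the same gene. At the png-1 summit of 251, none of the 52 words was unique and the median word had 3 copies, and at the plx-1 summits of 619 and 398 only 13 and 8 of 52 words were unique. How the aligner placed reads that fit several copies is not given in the sources used here, and its part in these signal values was not tested. Both mac-1 summit windows, with signal values of 776 and 240, consisted of unique 50-base words throughout. In the longer array under the stronger one, 98.4% of such words were unique and others had up to 2 copies. With words of 36 bases, 13 of the 27 windows were unique throughout.

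The word ATCGAT or ATTGAT was dense at the strong summits. Of the 27 summits, 22 had at least 2 matches within 50 bp, against 31.8% of all pooled-list summits. The word was put together earlier from these same peaks, so its presence at them is not independent evidence, and a match is a run of letters and not a shown binding site. Of the 15 summits with a signal value of at least 150 (the lowest was 192), 14 had 3 or more matches, and of the 12 weaker ones (the highest was 145) 4 did, while the share over the list was 17.1%. The exception among the strong was the Y65B4A.2 intron 4 summit, with 2 matches, and the 4 weak ones with 3 or more were the last summit of png-1 intron 5, the later pair of josd-1 and the one in plx-1 intron 13. Because the genes were chosen by signal, this split is a description only. Over the 2388 summits outside the genes, signal and matches within 50 bp had a Spearman rho of 0.171.

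Within 150 bp the members held 1 to 15 matches with a median of 11, while the median over all pooled-list summits was 1. Signal rank and match count went together with a Spearman rho of 0.627 over the 27 summits, which share 5 genes and were chosen by signal. Over the 2388 summits outside the genes rho was 0.130. Across the list, strong signal without matches was common too, as at the frm-7 and cutl-18 summits with 0 matches within 50 bp, each next to a snoRNA gene. The dys-1 and Y48C3A.18 summits, with 5 and 4 matches in fully masked windows, resembled the members.

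**Figure D3:**
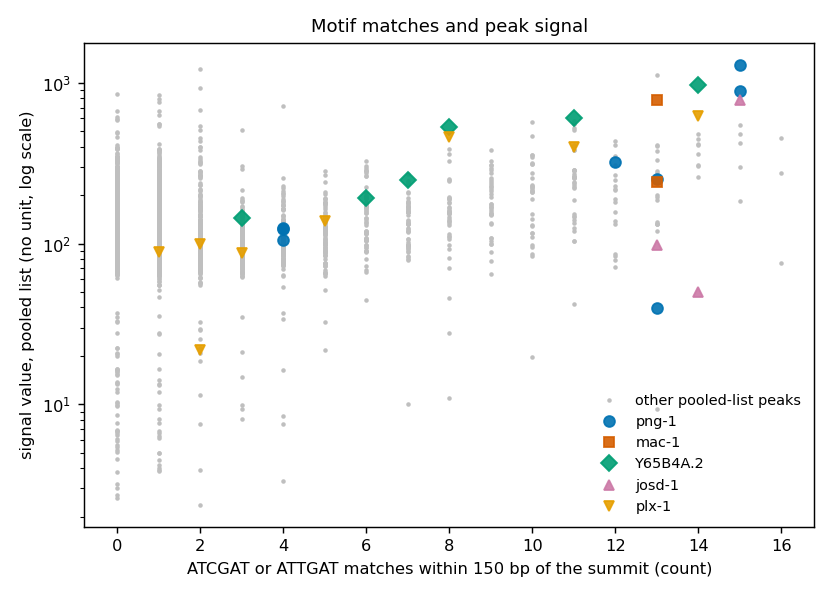
Signal value in the pooled list (no unit, log axis) against the number of ATCGAT or ATTGAT matches within 150 bp of the summit, with the 27 summits of the 5 genes coloured and the other 2388 in grey. Members with at least 8 matches reach 1295 but also include 39.6 in png-1 and 50 in josd-1.

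The matches were concentrated in a few introns. The 12 introns that held a summit had 360 matches, or 22.9 per kb, and the 35 without had 69, or 2.19 per kb, beside 1.45 per kb over all protein-coding introns and 1.56 per kb of genome. Intron 5 of png-1 held 95 matches (46.9 per kb), the most of any intron but 2 very long ones, in cox-6B (160 in 86515 bp) and nhr-27 (147 in 100912 bp). Intron 5 of Y65B4A.2 came next with 76 matches (33.6 per kb). Intron 1 of josd-1 held 36 (44.6 per kb), intron 19 of plx-1 held 35 (31.6 per kb) and intron 3 of mac-1 held 32 (20 per kb). Among 109051 distinct introns these were ranks 20, 26 and 31. Dense short introns also occurred without a listed summit, such as josd-1 intron 3, with 8 matches in 256 bp.

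**Figure D4:**
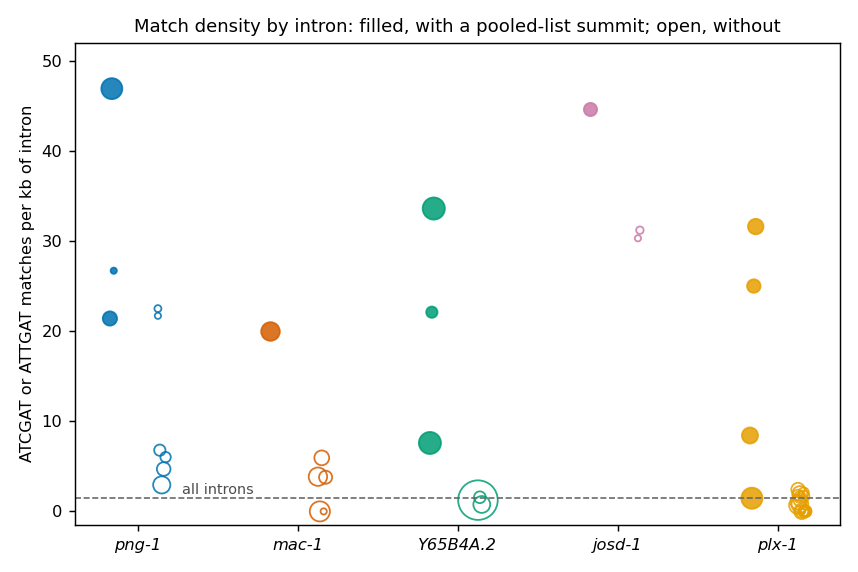
ATCGAT or ATTGAT matches per kb for each of the 47 introns of the 5 genes, with filled circles for the 12 introns that hold a pooled-list summit, open circles for the 35 that do not, and circle area growing with intron length. The dashed line is the 1.45 per kb of all introns; filled circles reach 46.9 per kb in png-1, and the filled circle at 1.46 is plx-1 intron 2.

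The introns differed in which form of the word they carried and in its orientation. In png-1 intron 5, 82 of the 95 matches were ATTGAT on the gene's own strand, 13 were ATCGAT and 0 were ATCAAT, so its ATTGAT matches all ran in 1 direction. In png-1 intron 4 the other direction prevailed, with 14 of 20 matches reading ATCAAT on the gene's strand. In plx-1 intron 19 it prevailed too, with 28 of 35 matches. The symmetric ATCGAT prevailed in mac-1 intron 3 (30 of 32), Y65B4A.2 intron 5 (68 of 76) and josd-1 intron 1 (28 of 36). Forms also differed between the introns of plx-1, since 20 of 21 matches in its intron 13 were ATCGAT. The 3 strongest host introns, of png-1, Y65B4A.2 and josd-1, thus did not share a prevailing form.

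In the leading introns the commonest distance between neighbouring matches was 18 to 20 bp. In png-1 intron 5, 88 of 94 gaps between starts of neighbouring matches were exactly 20 bp, and in its intron 4 12 of 19 were. The step was 19 bp in josd-1 intron 1 (30 of 35 gaps), in plx-1 intron 19 (23 of 34) and in Y65B4A.2 intron 5 (34 of 75). In mac-1 intron 3 the commonest gap was 18 bp, but only 10 of 31 gaps had it, the lowest share among the leading introns. Not every intron with a summit had a regular step, since 0 of 9 gaps in plx-1 intron 1 measured 18 to 21 bp. Over the 12 introns with a summit, 246 of 348 gaps (70.7%) measured 18 to 21 bp, against 2069 of 29799 (6.94%) in all protein-coding introns. Most of the 246 came from intron 5 of png-1 (89), intron 5 of Y65B4A.2 (52) and intron 1 of josd-1 (32). Match density also differed, at 22.9 per kb against 1.45 per kb, and gaps at like density were not compared.

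**Figure D5:**
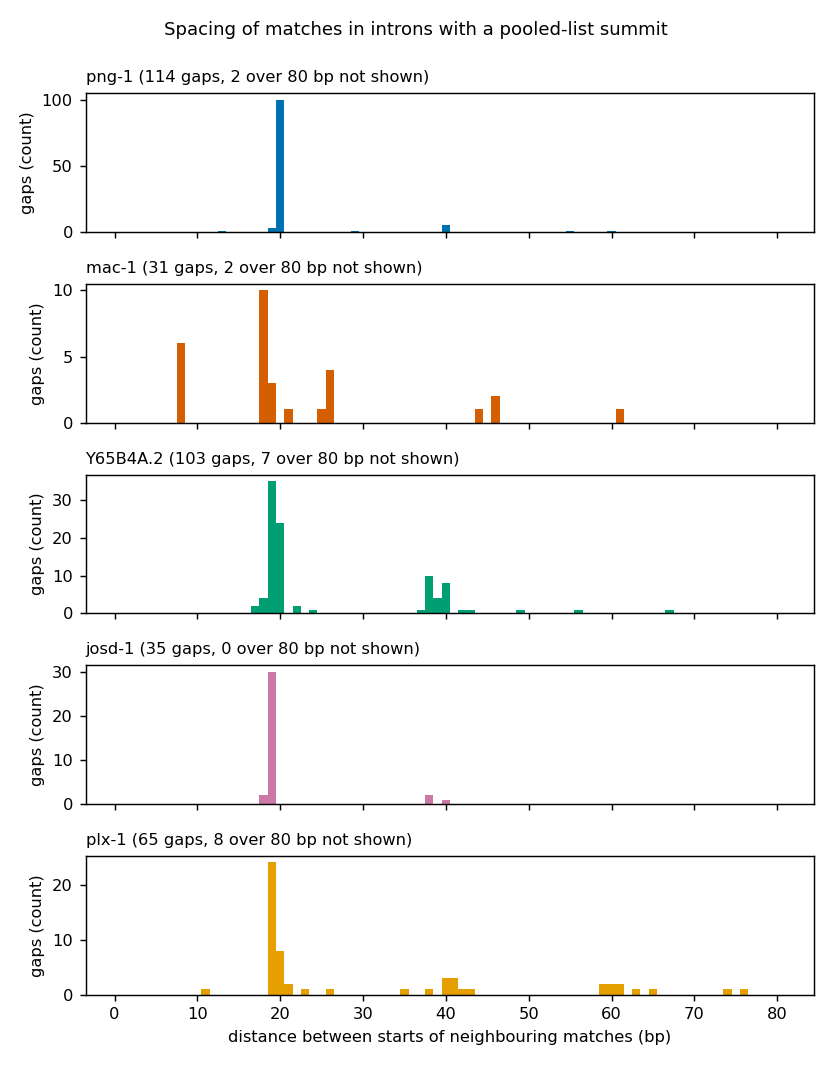
Distribution of the distance in bp between starts of neighbouring ATCGAT or ATTGAT matches in the introns with a pooled-list summit, as a count of gaps for each gene. png-1 has a single sharp peak at 20 bp and josd-1 one at 19 bp, while mac-1 is spread over several distances.

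To describe how often such sequence carries a peak, arrays were defined from the genome alone as runs with at least 8 matches in 200 bp. Of 162 arrays, 139 (85.8%, exact Clopper-Pearson 95% interval 79.5 to 90.8, counting error only) held a pooled-list summit, a share that is itself shaped by the word having been taken from these peaks. The share was 78.0% for arrays of 8 to 11 matches (64 of 82) and 95.8% for those of 24 to 95 (23 of 24). The 5 genes held 8 arrays, all with a summit, a share that follows in part from their choice, and 16 of their 27 summits lay inside one. The png-1 intron 5 array (95 matches) and the Y65B4A.2 intron 5 array (76 matches) were the longest of the genome by count, and those of josd-1 (36 matches) and plx-1 intron 19 (34 matches) ranked 9 and 11. The highest signal values in these arrays, by which the genes were chosen, fell in the same order, at 1295, 973, 784 and 619. Arrays outside the 5 genes with counts between these did not keep that order. Those of 65, 44 and 39 matches gave 229, 546 and 134, and those of 37 matches gave 377 and 78.6. The array of 60 matches had no listed summit. The smaller arrays of the 5 genes did not keep that order either. Those of 17 and 14 matches in mac-1 gave 240 and 776, 16 matches in png-1 intron 4 gave 323, and 9 in the plx-1 3′ UTR gave 460.

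Arrays without a summit numbered 23, and 14 of them had no entry even in the ranked list of all candidate peaks. The largest lay in Y47D3A.32, with 60 matches and a best candidate of signal value 35.7. Of its 50-base words 33.7% were unique, beside 42.0% in the png-1 intron 5 array and 17.4% in the Y65B4A.2 intron 5 array. Over all arrays the median share of unique words was 91.1% without a summit and 100% with one. Arrays with under 50% unique words were 7 of the 23 without a summit and 13 of the 139 with one, a larger share of those without. The part of repeated words in the missing peaks was not tested. A long array was therefore present without a listed peak.

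Genes that act in the same processes as png-1, mac-1, josd-1 and plx-1 were looked up, and no partners were listed for Y65B4A.2. Like most protein-coding genes, most of them had no peak. Of 40 annotated partner genes, 6 had a pooled-list summit in the body or in the window that reaches 1000 bp before and 200 bp past a 5′ end, against 9.12% of all protein-coding genes. In the body 2 of the 40 had one, about the same share as the 4.75% of all protein-coding genes. The counts are small, and neither a lack nor an excess of peaks is read from them. From the png-1 list of degradation factors of the endoplasmic reticulum, 2 of 15 had one. They were cdc-48.1, the ATPase that extracts ubiquitinated proteins (156, with 83.7 and 72.3), and cup-2, a derlin (69.2, in neither replicate's own list). From the mac-1 list of AAA ATPases and cell death genes, 3 of 9 had one, namely cdc-48.1 again, nsf-1, the vesicle fusion ATPase (220, with 130 and 86.7), and spas-1, a spastin (165, with 77.6 and 81.0). From the deubiquitinating enzymes listed with josd-1, 1 of 9 did, math-33 (130, with 64.4 and 68.8), and from the semaphorin and plexin genes 1 of 9, mab-20, a semaphorin (94.1, with 43.5 in replicate 1 and none in replicate 2). The strongest of these summits lay upstream of the 5′ ends, from 150 bp at cdc-48.1 to 488 bp at nsf-1 and math-33, and each of the partner summits held 0 to 2 matches.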

How the data were processed

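Per the labels, DNA was sheared by sonication to between 200 and 800 bp and coordinates are those of ce11. Which aligner and caller made the peaks is not given in the sources used here. A control alignment is named in notes beside the lists and was not analysed. The authors deposited thresholded and ranked peak lists per replicate and for both together. The deposited signal of a peak is the caller's own value and has no unit, and how it was computed is not given. For ranked entries the authors deposited a −log10 of the global IDR, and a summit offset in bp, an other measure, from which positions were read. Signals were used as deposited, to describe and rank within a list.

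Summits were placed in genes of Ensembl release 115, with UTR, coding exon and intron taken from all coding transcripts. Peaks overlapping by 1 bp formed a region, and summits within 100 bp matched. Masking, sequence, matches within 50 and 150 bp, arrays and copies of 50-base words were read from the RefSeq ce11 genome with Python 3.11.15, numpy 2.4.6 and scipy 1.17.1. The masking program is not stated. The array search was tested on simulated data and recovered 20 of 20 planted arrays. Named genes were the 5 members, genes within 500 bp of their summits, partner-list genes with a summit and the next 5 hosts. For cox-6B, nhr-27 and Y47D3A.32, names were added after their values were seen. The members, lists and word were chosen with earlier results of these data known. With 1 group of 2 replicates no test was made. Alternatives were other lists, windows, word lengths, match distances and array sizes.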

Additional observations from a re-analysis of the deposited data

How the results depend on the processing

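Of 40 alternatives over 10 counts, 36 stayed within 1.5 times the value given and 4 did not. Searching ATCGAT alone left 14 of the 27 summits with at least 2 matches, against 22 with both forms. Partner genes with a summit in the body alone numbered 2 of 40, against 6. Arrays with a summit numbered 56 of 65 for at least 10 matches and 253 of 330 for at least 6, against 139 of 162. Fewer or more arrays then qualify, and the share with a summit was lowest for at least 6 matches. These array and word settings were chosen after seeing the data. With either replicate's own list in place of the pooled one, the summits in the 5 genes numbered 24 to 27, the intronic ones 23 to 24, the masked ones 23 in each, the regions 20 to 23, the summits with at least 2 matches 22 to 23, the arrays with a summit 126 to 135 and the partner genes 4 to 5, and all 5 genes kept a summit. Without depth, no interval could be given for a signal value. No paired analysis was possible because the samples form 1 group.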
